A study of Homo sapiens with 8 samples.

Results

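The ID genes, the inhibitory SMAD genes SMAD6 and SMAD7, and the follistatin gene FST were followed over a time course of interferon-beta (IFN-β) in U6A cells. The members were every probe with the gene symbol ID1, ID2, ID3, ID4, SMAD6, SMAD7 or FST, which gave 11 probes for 7 of the 20045 genes named on the array. ID1, ID2, SMAD7 and FST had 2 probes each, and ID3, ID4 and SMAD6 had 1. The genes were chosen by their intensities on these same 8 arrays, by line and time, so the members' values are given as a description and were not tested.

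U6A is a human fibrosarcoma cell line that lacks STAT2, and all cells compared here were U6A cells in which STAT2 had been put back. One line expressed wild-type STAT2 and the other expressed STAT2 with the T387A substitution. Each line was measured untreated (0 h) and at 3 times of IFN-β (4, 8 and 24 h; 100 IU/ml), with 1 bead array of total RNA for each of the 8 combinations. The labels give neither the promoter of the STAT2 constructs nor whether a line is a clone or a pool, and STAT2 itself was not analysed here.

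ID proteins carry a helix-loop-helix domain without the basic region that binds DNA. They pair with E proteins and keep them and their tissue-specific partners off their target genes. ID1, ID2 and ID3 are among the best known direct targets of bone morphogenetic protein (BMP) signalling, in which receptors phosphorylate SMAD1 and SMAD5 and these enter the nucleus with SMAD4. SMAD6 and SMAD7 are inhibitory SMADs that block the receptors or their SMADs and are themselves induced as feedback. Follistatin is secreted and traps activins and some BMPs.

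The windows around the start sites of 4 members are shown because ID1, ID3 and FST were the members above the floor on all 8 arrays with estimates over 1 at 8 h on the log2 scale, and SMAD6 is the inhibitory SMAD whose window holds a palindromic SMAD element. They are taken from RefSeq (GRCh38.p14), which gave windows of 300 bases for all 7 members, from 250 before to 50 after the start site. Capitals mark matches to any of 6 motifs on either strand. The windows are chr20:31605039-31605338 on the plus strand for ID1, chr1:23559452-23559751 on the minus strand for ID3, chr5:53480379-53480678 on the plus strand for FST and chr15:66701986-66702285 on the plus strand for SMAD6.
ID1: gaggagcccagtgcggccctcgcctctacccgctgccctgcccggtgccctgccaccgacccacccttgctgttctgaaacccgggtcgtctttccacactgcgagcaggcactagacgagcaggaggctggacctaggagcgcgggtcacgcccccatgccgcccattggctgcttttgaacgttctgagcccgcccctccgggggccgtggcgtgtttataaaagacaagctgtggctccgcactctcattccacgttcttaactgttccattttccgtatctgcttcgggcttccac
ID3: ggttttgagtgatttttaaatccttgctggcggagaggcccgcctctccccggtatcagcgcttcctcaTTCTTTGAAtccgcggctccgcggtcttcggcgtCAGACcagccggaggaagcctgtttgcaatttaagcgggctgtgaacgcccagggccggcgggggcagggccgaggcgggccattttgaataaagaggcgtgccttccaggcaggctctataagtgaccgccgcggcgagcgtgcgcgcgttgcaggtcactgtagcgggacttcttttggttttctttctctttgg
FST: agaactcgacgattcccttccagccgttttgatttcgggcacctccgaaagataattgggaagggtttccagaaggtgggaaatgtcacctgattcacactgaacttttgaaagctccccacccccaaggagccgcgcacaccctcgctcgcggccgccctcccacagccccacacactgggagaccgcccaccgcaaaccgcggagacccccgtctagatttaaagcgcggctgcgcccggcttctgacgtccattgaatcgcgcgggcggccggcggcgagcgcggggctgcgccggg
SMAD6: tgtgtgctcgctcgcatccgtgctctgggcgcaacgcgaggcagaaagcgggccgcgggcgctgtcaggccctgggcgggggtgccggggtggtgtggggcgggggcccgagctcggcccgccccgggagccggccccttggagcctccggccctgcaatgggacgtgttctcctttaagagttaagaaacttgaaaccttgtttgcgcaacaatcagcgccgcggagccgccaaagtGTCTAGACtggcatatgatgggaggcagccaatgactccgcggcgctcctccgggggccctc

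The motifs were the SMAD box CAGAC, the palindromic SMAD element GTCTAGAC, the GC-rich element GGCGCC bound by BMP-activated SMADs, the interferon-stimulated response element (GAAA, any 2 bases, GAAA), the STAT dimer element TTCNNNGAA and the cyclic AMP response element TGACGTCA. The motifs were chosen after these windows had been seen. The ID3 window held 1 STAT dimer element, TTCTTTGAA, at position -181 from the start site, and 1 SMAD box at position -147. The SMAD6 window held GTCTAGAC at position -12. The ID1 and FST windows, and the ID2 window, held none of the 6. The ID4 window held 1 SMAD box, and of 3 SMAD7 windows 1 held a single SMAD box and another held 2. Among all 35116 promoter windows, 7.66% held the STAT dimer element, 45.3% the SMAD box, 0.202% the palindromic element, 19.2% GGCGCC, 3.57% the interferon element and 1.85% the cyclic AMP element. A missing match says only that these letters are not in this window, and none of the motifs was tested for binding here.

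The arrays were alike in overall signal. The deposited values had nearly the same distribution on every array, and 40.2 to 40.3% of probes lay above a floor of 10.7, below which values were set to 10.7. The treatment was visible on all 6 treated arrays: IFIT1, an antiviral gene, stood at 167.4 and 149 without IFN-β and at 5021 or above with it. Of 9 mesenchymal markers, 6 were above the floor on all 8 arrays, among them VIM, CD44, TIMP1 and SPARC, while THY1 was below it on all 8 and COL1A1 above it on 3. None of 5 epithelial markers was above the floor on all arrays, and CDH1, KRT5 and KRT14 were above it on none. Of the leukocyte list PTPRC and CD3E were above it on none and CD14 on 3, while CD68, a lysosomal protein gene, read 1534.3, 1437.8, 1891.5 and 2444.2 at 0, 4, 8 and 24 h in wild-type and 1335.4, 1527.6, 2093.9 and 3023.2 in T387A cells. Of the endothelial list CDH5, KDR and VWF were above it on none, while PECAM1 was above it on all 8, at 32.4 to 71.8. The part of these markers in the members' values was not tested.

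ID3 was higher at all times of IFN-β than before it, with its highest level at 8 h in both lines. In wild-type cells its intensity at 0, 4, 8 and 24 h was 164, 484.9, 661.7 and 296. The same series in T387A cells was 163.9, 531, 919.5 and 311.5. Both untreated arrays lay below all 6 treated ones, and in each line the 24 h array lay between the 0 h and the 4 h array. The ratio to 0 h was 2.96, 4.03 and 1.80 in wild-type cells and 3.24, 5.61 and 1.90 in T387A cells at 4, 8 and 24 h. At 24 h the level was 2.24-fold lower than at 8 h in wild-type cells and 2.95-fold lower in T387A cells. By the brighter probes, ID3 was the 1 member at least 2-fold lower between these times in wild-type cells (1.74% of all genes tested). ID3 and ID1 were the 2 in T387A cells (2.12%), where the dimmer probes of ID1, ID2 and SMAD7 also passed. By the brighter probes ID3 was the 1 member that in both lines passed 2-fold above 0 h by 8 h and fell 1.5-fold or more by 24 h (0.293% of genes). The dimmer FST probe did so too, at least 6.29- and 6-fold above 0 h at 8 h. From 8 h to 24 h it fell 1.8-fold in wild-type and 1.52-fold in T387A cells. The brighter FST probe fell 1.43- and 1.58-fold.

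Over both lines, the fit of time plus line gave ID3 a log2 difference from 0 h of 1.63 ± 0.14 at 4 h, 2.25 ± 0.14 at 8 h and 0.89 ± 0.14 at 24 h (SE, 2 arrays against 2). These are estimates from limma without a test. Of the 13656 genes tested, 61 had a larger estimate than ID3 at 4 h, 71 at 8 h and 259 at 24 h. ID3 and FST were the members with all 6 treated arrays above both untreated ones, a pattern that 4.61% of all genes tested showed. In bulk RNA, a change in the number of cells that express a gene and a change in RNA per cell cannot be told apart. The untreated arrays are those at 0 h, so that IFN-β and time in culture cannot be told apart.

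ID1 was also highest at 8 h in both lines by its brighter probe, with smaller ratios to 0 h than ID3 at each time. Its brighter probe (ILMN_1664861) read 507.8, 928.4, 962.1 and 623 at 0, 4, 8 and 24 h in wild-type cells. The readings in T387A cells were 553.9, 1127, 1308 and 534.9. By this probe the levels at 0 h and 24 h overlapped. The ratio to 0 h was 1.83 at 4 h and 1.89 at 8 h in wild-type cells, and 2.04 and 2.36 in T387A cells. At 24 h the ratio was 1.23 in wild-type and 0.966 in T387A cells.

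The fit gave ID1 estimates of 0.95 ± 0.18 at 4 h, 1.08 ± 0.18 at 8 h and 0.12 ± 0.18 at 24 h on the log2 scale. Between 4 h and 24 h its estimate was -0.83 ± 0.18, and that of ID3 was -0.74 ± 0.14. Only 2.01% of genes tested had a smaller estimate than ID1 between these times, and 2.73% a smaller one than ID3. The dimmer ID1 probe (ILMN_1665832) was at the floor on both 0 h arrays and on the T387A array at 24 h. It read 25, 24.8 and 30.8 at 4, 8 and 24 h in wild-type cells, and 39.4, 45.5 and 8.8 in T387A cells. The 2 probes therefore disagreed on the wild-type array at 24 h, where the dimmer one was at its highest in that line. With the mean of both probes in place of the brighter one, the ID1 estimate at 24 h was 0.44.

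ID2 was close to the floor throughout. Its brighter probe (ILMN_2086095) read 6.2, 23.3, 20.6 and 0.4 in wild-type cells and 3.1, 15.2, 30 and 20.9 in T387A cells, so that it was at the floor on both 0 h arrays and on the wild-type array at 24 h. It stood at least 2.18-fold above 0 h at 4 h in wild-type and at least 1.42-fold in T387A cells, and at least 1.93-fold and 2.80-fold at 8 h. The second ID2 probe (ILMN_1793990) read from 1.3 to 22.6, with its highest value on the T387A array at 8 h. The fit's estimates had a wide error, 0.81 ± 0.39 at 4 h and 1.22 ± 0.39 at 8 h. With the floor doubled to 21.4 they were 0.06 and 0.24. ID4, the fourth family member, was below the floor on all 8 arrays, with values from -12.2 to -4.7, and was the 1 member left out of the fit.

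**Figure D1:**
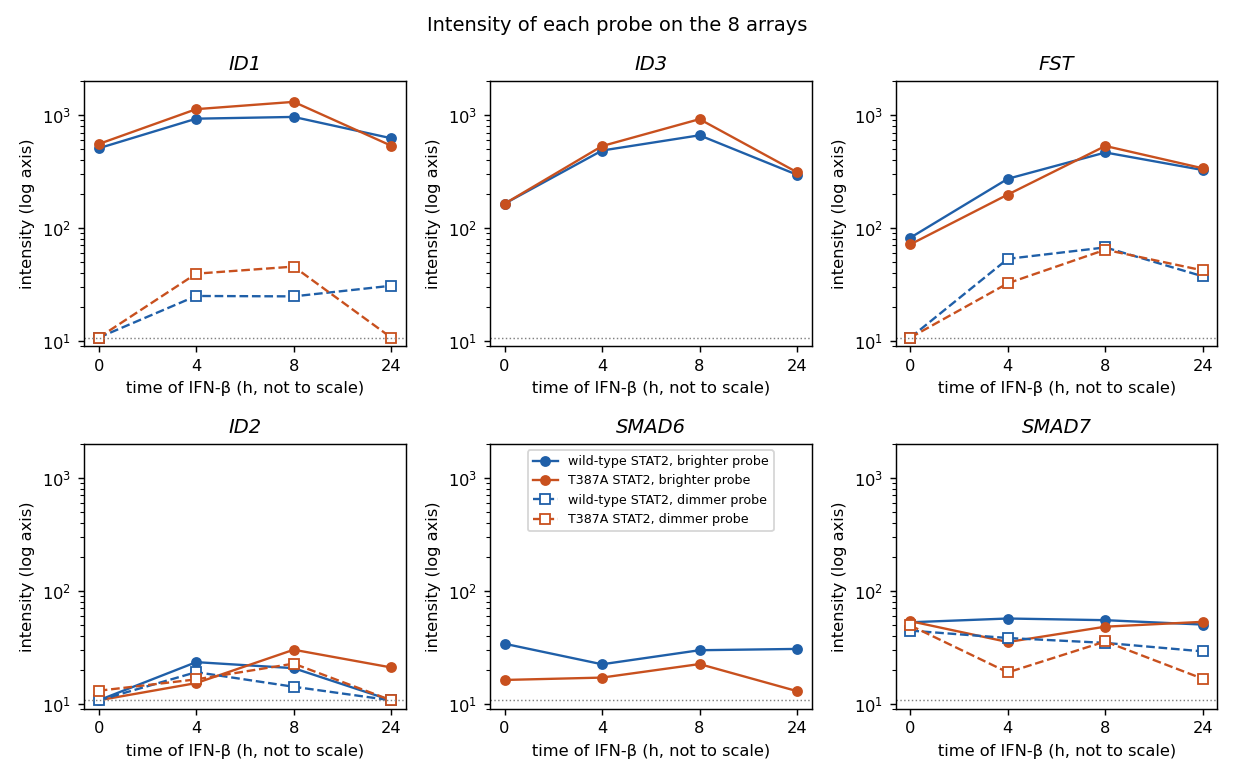
Intensity of each member probe (log axis) against time of IFN-β in h for wild-type (blue) and T387A (orange) cells, 1 array per point; filled circles are the brighter and open squares the dimmer probe, and the dotted line is the floor of 10.7. ID1, ID3 and FST are highest at 8 h in both lines by their brighter probes, while SMAD6 and SMAD7 stay below 60; ID4, below the floor on all arrays, is not drawn.

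FST, the extracellular antagonist of the set, had the largest ratios at 8 h and 24 h. Its brighter probe (ILMN_1700081) read 82, 272.7, 466.1 and 325.8 at 0, 4, 8 and 24 h in wild-type cells. In T387A cells it read 71.6, 197.7, 532.1 and 337.5. All treated arrays lay above both untreated ones, and unlike ID1 the gene stayed well above its starting level at 24 h. The ratios to 0 h were 3.33, 5.68 and 3.97 in wild-type cells and 2.76, 7.43 and 4.71 in T387A cells.

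The fit gave FST estimates of 1.60 ± 0.18 at 4 h, 2.70 ± 0.18 at 8 h and 2.11 ± 0.18 at 24 h. Larger estimates were found for 65, 60 and 79 of the 13656 genes at these times. The dimmer FST probe (ILMN_1712896) is annotated to another RefSeq transcript of the gene than the brighter one. Without IFN-β it lay at the floor in both lines, and it read 53.3, 67.3 and 37.3 in wild-type and 32.4, 64.2 and 42.1 in T387A cells at 4, 8 and 24 h. At 8 h it was at least 6.29-fold above 0 h in wild-type and at least 6-fold in T387A cells. Across the 8 arrays the 2 FST probes correlated at a Pearson r of 0.972 on the log2 scale, and the 2 ID1 probes at 0.88, both with low values set to the floor.

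The inhibitory SMAD genes were dim, and by the probe that stood for each gene their estimates at 4, 8 and 24 h were near 0. The brighter SMAD7 probe (ILMN_2203891) read 52.5, 56.7, 54.8 and 50.1 in wild-type cells and 53.7, 35.1, 48 and 53 in T387A cells at 0, 4, 8 and 24 h. Apart from the T387A array at 4 h, these 8 values lay between 48 and 56.7. The second SMAD7 probe (ILMN_2203896) read 44.3, 38.1, 34.5 and 29 in wild-type and 49.2, 18.9, 35.5 and 16.6 in T387A cells. By this probe the ratio to 0 h was 0.86, 0.779 and 0.655 at 4, 8 and 24 h in wild-type cells. In T387A cells it was 0.384, 0.722 and 0.337. The probes correlated at r = 0.531 over the 8 arrays, with values at other levels.

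The fit's SMAD7 estimates from the brighter probe were -0.25 ± 0.21, -0.05 ± 0.21 and -0.04 ± 0.21 at 4, 8 and 24 h. With the mean of both probes the estimate was -0.53 at 4 h and -0.57 at 24 h. SMAD6 had 1 probe (ILMN_1767068), which read 33.9, 22.3, 29.7 and 30.5 in wild-type cells. In T387A cells it read 16.2, 17, 22.4 and 12.9. Its estimates were -0.27 ± 0.26, 0.14 ± 0.26 and -0.24 ± 0.26, each within about its own SE of 0. For genes with a mean level under 50, such as SMAD6, the residual SD of the fit was 0.319, and a difference between 2 single arrays has an SD of 0.451.

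Counts past a 2-fold threshold by the brighter probes, which the choice of members partly fixes, were as follows. In wild-type cells 3 of the 6 members above the floor on any array were at least 2-fold higher at 4 h than at 0 h (ID2, ID3 and FST; 2.41% of all genes tested), 2 at 8 h (ID3 and FST; 2.44%) and 1 at 24 h (FST; 2.87%). In T387A cells 3 were at 4 h (ID1, ID3 and FST; 1.79%), 4 at 8 h (ID1, ID2, ID3 and FST; 2.31%) and 1 at 24 h (FST; 2.51%). In both lines at once, ID3 and FST were at least 2-fold higher at 4 h (0.674% of genes) and at 8 h (1.13%), and FST at 24 h (1.08%). ID3 and FST were also the members past this threshold at both 4 h and 8 h in both lines (0.527% of genes). The dimmer ID1 probe was past it there as well, at lower bounds of 2.34 and 2.32 in wild-type and 3.68 and 4.25 in T387A cells. By the brighter probes, no member was at least 2-fold lower than at 0 h, though the dimmer SMAD7 probe was in T387A cells at 4 h and 24 h (log2 -1.38 and -1.57), beside 2.31%, 1.6% and 2.01% of genes at 4, 8 and 24 h in wild-type cells and 1.58%, 1.44% and 2.12% in T387A cells. The median log2 difference over the 6 members at 8 h was 0.93 in wild-type and 1.36 in T387A cells, beside 0 over all genes tested.

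**Figure D2:**
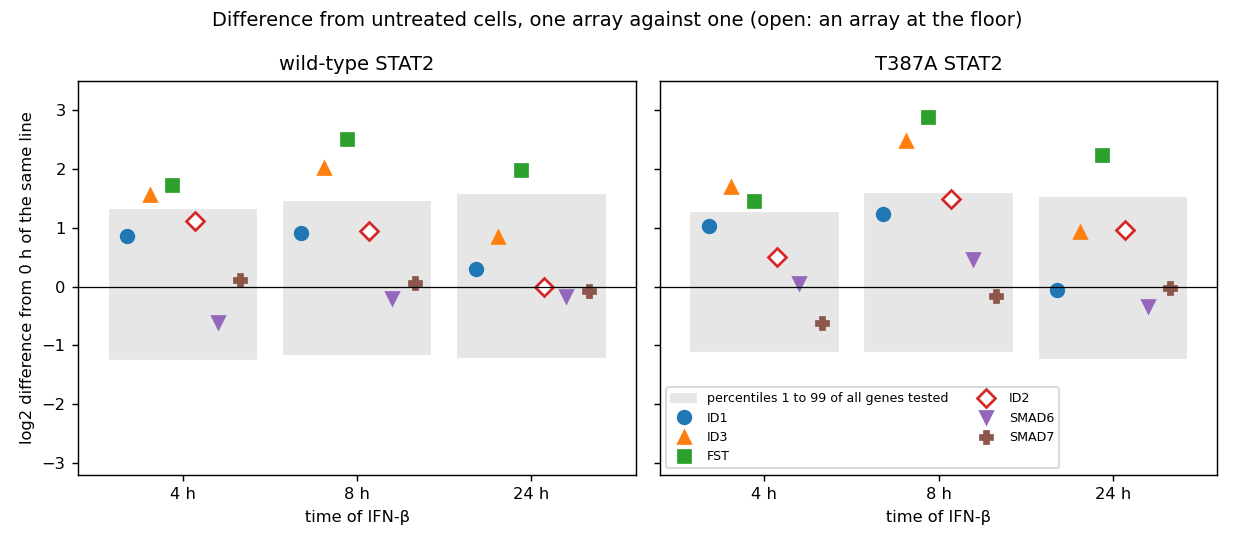
Log2 difference of the brighter probe of each member from the 0 h array of its line (y axis) at 4, 8 and 24 h of IFN-β (x axis) in wild-type (left) and T387A cells (right); grey boxes span percentiles 1 to 99 of the 13656 genes tested and open symbols have an array at the floor. ID3 and FST lie above the boxes at 4 h and 8 h in both lines, FST alone at 24 h, and SMAD6 and SMAD7 lie inside them throughout.

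By their brighter probes, ID1, ID3 and FST each differed by less than 0.5 on the log2 scale between the 2 lines at each time. The dimmer ID1 probe differed by more, with T387A minus wild type at 0.66, 0.88 and -1.53 at 4, 8 and 24 h, the last with the T387A array at the floor. For the dimmer FST probe the difference was -0.72 at 4 h. ID3 stood at 164 and 163.9 in untreated wild-type and T387A cells, and the log2 difference of T387A from wild type was 0.13, 0.47 and 0.07 at 4, 8 and 24 h. For ID1 it was 0.13, 0.28, 0.44 and -0.22 at 0, 4, 8 and 24 h. At 8 h, 6.56% of genes tested were further above wild type in T387A cells than ID3, and 7.43% further than ID1. Genes as far apart in the other direction are not in these shares. For FST it was -0.20, -0.46, 0.19 and 0.05. Genes with a mean level of 200 to 1000, which ID1, ID3 and FST have, had a typical SD of 0.185 for a difference of 2 arrays. The residual SD behind it was 0.131, while those of ID1, ID3 and FST were larger, at 0.2, 0.149 and 0.204. These SDs are built from the line differences at each time, so they are no independent yardstick for them. No test of a single time exists with 1 array per line.

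SMAD6 was lower in T387A than in wild-type cells at each of the 4 times. The log2 difference was -1.07, -0.39, -0.41 and -1.24 at 0, 4, 8 and 24 h, and the fit over the 4 times gave -0.78 ± 0.18. The highest T387A value, 22.4, lay just above the lowest wild-type value, 22.3, so the lines overlapped; all 4 T387A arrays lay below all 4 wild-type arrays for 0 members and 1.49% of genes. By the brighter probes, SMAD6 was the 1 member at least 2-fold lower in T387A cells at 0 h (1.08% of genes) and at 24 h (2.12%). At 4 h and 8 h 0 members were by these probes (1.16% and 0.82%), and 0 members were at least 2-fold higher at 0, 4, 8 or 24 h (1.33%, 1.63%, 0.864% and 2.15%). The dimmer SMAD7 probe was past 2-fold lower at 4 h, at 18.9 in T387A and 38.1 in wild-type cells (log2 -1.01). The brighter SMAD7 probe had -0.69 there. At 24 h the dimmer ID1 probe was lower too (-1.53), with the T387A array at the floor. Of all genes tested, 0.249% had a smaller estimate than SMAD6. The estimate was -0.41 with the floor doubled and -0.29 without a floor. Over the 4 times the estimates were 0.16 ± 0.12 for ID1, 0.17 ± 0.10 for ID3, 0.22 ± 0.27 for ID2, -0.10 ± 0.13 for FST and -0.19 ± 0.15 for SMAD7. Across all genes, limma called 0 of 13656 between the lines (0% in each direction), with 1496 at an unadjusted p under 0.05.

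**Figure D3:**
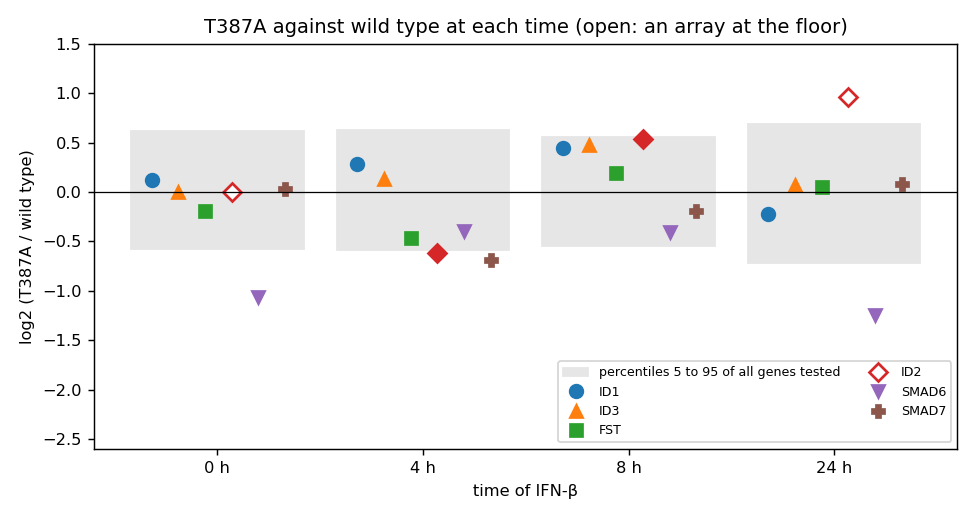
Log2 ratio of T387A to wild-type intensity (y axis) for each member's brighter probe at 0, 4, 8 and 24 h of IFN-β (x axis), 1 array against 1; grey boxes span percentiles 5 to 95 of all genes tested and open symbols have an array at the floor. SMAD6 lies below 0 at all 4 times and outside the boxes at 0 and 24 h, while ID1, ID3 and FST lie inside them at all 4 times. SMAD7 and ID2 lie below the box at 4 h (-0.69 and -0.62). ID2 lies above it at 24 h (0.97, with the wild-type array at the floor).

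The members' levels were compared over the 8 arrays by correlation. Pearson's r of log2 values was 0.925 between ID1 and ID3, 0.849 between ID3 and FST and 0.601 between ID1 and FST. SMAD6 and SMAD7 had r of 0.03 and -0.45 with ID1. These are descriptions over 8 arrays that share 2 lines and 4 times. Among the 422 other genes with a mean level of at least 100 and a range of at least 1 on the log2 scale, the genes most like ID1 were ETS2, a transcription factor (r = 0.970), PHACTR4, a phosphatase and actin regulator (0.965), and SERTAD1 (0.952).

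The genes most like ID3 were HSPA1A (0.977), KLF6 (0.972) and HSPA1B (0.959). HSPA1A and HSPA1B are near-identical genes for an inducible HSP70 chaperone, and their probes may not tell them apart; KLF6 encodes a zinc-finger transcription factor. KLF6 had estimates of 1.09, 1.33 and 0.62 at 4, 8 and 24 h. The genes most like FST were 3 interferon-induced genes: the RNA sensor IFIH1 (0.963), PARP9 (0.952) and IFIT5 (0.952). These differed in amplitude from FST, with IFIH1 at 3.91, 5.29 and 4.73 at the 3 times. The 10 genes most like the mean course of ID1 and ID3 were HSPA1A, PHACTR4, KLF6, OSBPL10, SERTAD1, TRIM25, XRN1, SLC25A28, MB21D2 and NOCT, with r from 0.922 to 0.975. TRIM25, a ubiquitin ligase that acts on RIG-I, had estimates of 1.13, 1.88 and 0.71.

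Other genes of the BMP and TGF-β pathways were tested across all genes with limma, at a Benjamini-Hochberg adjusted p under 0.05. Of 125 genes in 10 lists, 84 were above the floor on at least 1 array. By 4 h 0 of them passed (0.264% of all genes tested passed as higher and 0.0806% as lower). At that time 17 of the 84 had an unadjusted limma p under 0.05, beside 2385 of all 13656 genes tested. By 8 h 1 of the 84 passed as lower (0.139% of all genes as lower and 0.806% as higher) and by 24 h 2 as lower (0.205% and 0.813%). Between 4 h and 24 h 2 passed as lower (0.308% as lower and 0.710% as higher). With the floor doubled, 4 of the pathway genes were called at 4 h (1 higher, 3 lower), and over all genes the split was 148 higher to 144 lower in place of 36 to 11. The median estimate of the 84 was -0.04 at 4 h, -0.05 at 8 h and 0 at 24 h, beside 0 over all genes.

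BMP6 was the one BMP ligand above the floor on all arrays. It fell by 0.90 ± 0.11 on the log2 scale from 0 h to 24 h (limma adjusted p = 0.0433) and by 0.93 ± 0.11 from 4 h to 24 h (adjusted p = 0.0466). Its intensity was 170.6, 169.5, 153.1 and 98.7 in wild-type and 132, 136.7, 112.5 and 65.1 in T387A cells. It was therefore lowest at 24 h in both lines, and near its 0 h level at 4 h. Any link between its RNA level and those of ID1 and ID3 was not tested. Of 14 ligands listed, 3 were above the floor on any array, and the other two exceeded it on 1 array each.

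Among receptors and SMADs 0 of 9 BMP receptors and co-receptors, 0 of 9 TGF-β and activin ligands and receptors and 0 of 6 receptor-regulated SMADs with SMAD4 passed in any of the 5 limma comparisons. The type I receptor ACVR1 had estimates of -0.32 ± 0.11, -0.41 ± 0.11 and -0.19 ± 0.11 at 4, 8 and 24 h. ACVRL1, from the same BMP receptor list, went the other way, with 0.999, 1.097 and 1.308 ± 0.289 at these times. Its limma adjusted p was 0.197, 0.203 and 0.157. ACVRL1 was dim, at 12.3 to 36.3 on the 8 arrays, and was named after its values were seen. BMPR2, the BMP type II receptor, had 0.28, 0.79 and 0.21 ± 0.20, with its highest level, 114.1, on the T387A array at 8 h. TGFBR2, the TGF-β type II receptor, read 652 at 0 h and 381.7 at 4 h in wild-type cells, and 770.5 and 415.4 in T387A cells (-0.83 ± 0.12, adjusted p = 0.0823). SMAD4 stayed between 320.6 and 354.3 on all 8 arrays, and SMAD5, which carries BMP signals, had 0.09 ± 0.11 at 4 h and -0.13 ± 0.11 at 8 h.

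NEDD4L, a ubiquitin ligase that targets activated SMAD2 and SMAD3, was the 1 of 16 intracellular SMAD regulators that passed at 8 h. It fell by 0.83 ± 0.10 (limma adjusted p = 0.0445), from 204.4 to 111.2 in wild-type cells and from 187.3 to 108.3 in T387A cells. SKIL, a SMAD corepressor, fell by 0.84 ± 0.10 from 4 h to 24 h (adjusted p = 0.0466), with all values at or below 21.7 and the T387A array at 24 h at the floor. With the floor doubled SKIL had an adjusted p of 0.985 (0.0384 to 0.985 over 7 settings). Of 13 extracellular antagonists and BAMBI 0 passed. TWSG1 and FSTL1, a relative of FST by name and domain, had estimates of -0.18 ± 0.09 and 0.13 ± 0.14 at 8 h. BAMBI, a pseudoreceptor induced by BMP, had 1.41 ± 0.41 at 8 h (adjusted p = 0.231), with values of 13.5 to 50.3; it was named after its values were seen.

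Other BMP targets were not called in either direction. Of 13 listed, 8 were above the floor on any array, 0 passed in any of the 5 limma comparisons, and their median estimate was -0.32 at 4 h and -0.26 at 8 h, beside 0 over all genes. MSX1, a homeobox factor, read 2209 at 0 h and 1515 at 4 h in wild-type cells, and 2259 and 1497 in T387A cells (-0.57 ± 0.09, adjusted p = 0.0959). HES1, a repressor of the Notch pathway, stood at 75.2 on both untreated arrays and 46.1 and 48.4 at 4 h (-0.67 ± 0.12, adjusted p = 0.0988). HEY1 had -0.37 ± 0.18 at 4 h. PMEPA1, a TGF-β target that restrains SMAD signalling, was the 1 of 10 TGF-β targets that passed and fell by 1.34 ± 0.16 by 24 h (adjusted p = 0.0466). Its highest value was 34.8 and its T387A array at 24 h was at the floor. With the mean of its probes it had -0.50 (adjusted p = 0.111; 0.0288 to 0.111 over 7 settings).

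The partners of the ID proteins and the cell cycle inhibitors they repress had 0 genes past the threshold in these limma comparisons. Of 16 partners and relatives, 8 were above the floor on any array. The E protein genes TCF3 and TCF12 had estimates of 0.24 ± 0.17 and -0.37 ± 0.13 at 8 h, and TWIST2 had -0.48 ± 0.22. TCF4, also an E protein gene, had 1.24 ± 0.31 at 8 h (limma adjusted p = 0.185). It was above the floor on 3 arrays, and at 8 h read 17.1 in wild-type and 37.5 in T387A cells. TCF4 was named after its values were seen. CDKN1A, which encodes the inhibitor p21, stood at 2245 to 2962 on the 8 arrays, with -0.23 ± 0.11 at 8 h. CDKN1B, encoding p27, had 0.02 ± 0.30. All 5 calls among the pathway genes, made by limma, were lost when any 1 of the 8 arrays was left out. Their adjusted p was then 0.0836 to 0.284, with 2 residual degrees of freedom in place of 3.

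**Figure D4:**
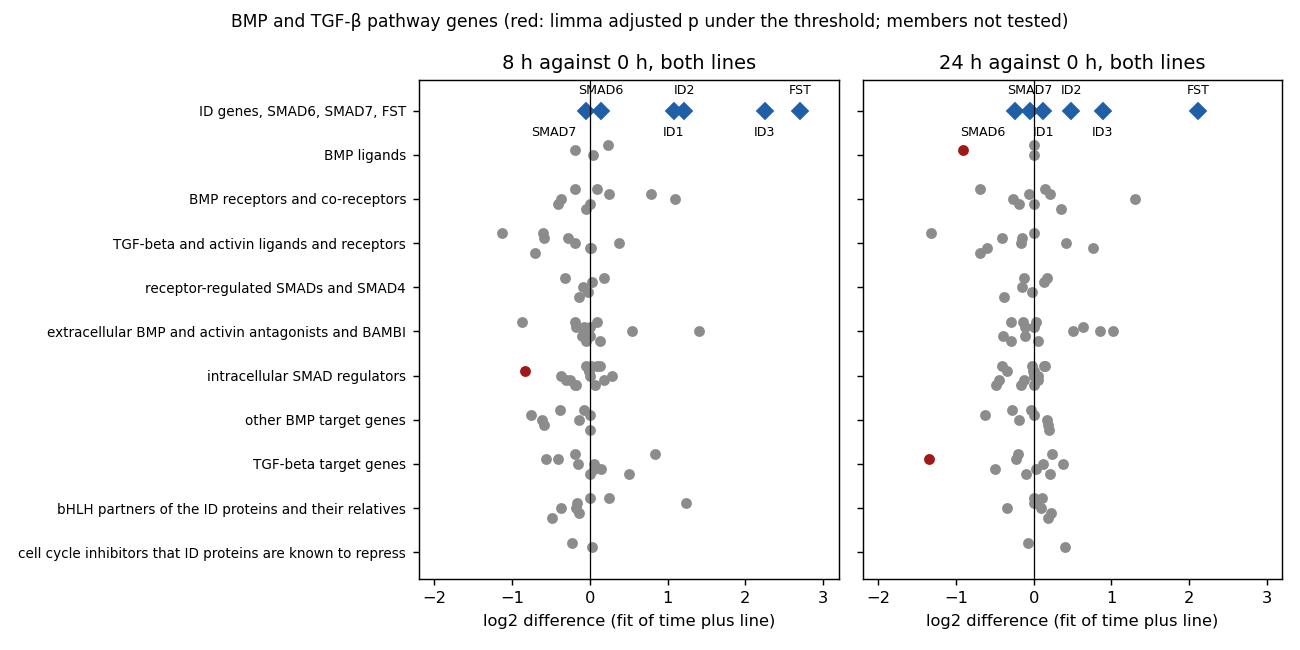
Log2 difference from 0 h in the fit of time plus line (x axis, both lines together) at 8 h (left) and 24 h (right) for the members (blue diamonds, not tested) and each gene of the 10 pathway lists (circles; red where limma's adjusted p was under 0.05). FST, ID3, ID2 and ID1 lie above 1 at 8 h, and the red points, NEDD4L at 8 h and BMP6 and PMEPA1 at 24 h, lie below 0.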

How the data were processed

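Total RNA of U6A cells was labelled with biotin and measured on Illumina bead arrays, per the labels' protocols. The values are linear probe intensities deposited by the authors; the submitters' processing notes name GenomeStudio, without a version or settings. Their columns had nearly the same distribution and 28.6% of values were at or below 0, which is how background-subtracted, quantile-normalized values look; no further normalization was applied. Arrays were grouped by line and time from their titles, 1 array per group, and their number limits the precision.

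Of 47315 probes 30111 had 1 gene symbol. The probe with the highest mean intensity stood for a gene. Values under 10.7, the size of the value at percentile 1, were set to 10.7 before log2. The 13656 genes above it on at least 1 array were fitted with limma 3.58.1 in R 4.3.3 as time (4 levels) plus line, tested on simulated data, with Benjamini-Hochberg adjustment over all genes. With 1 array per line and time, the fit has no replicate spread to draw on. Its SEs and p-values rest on differences between the lines in time course, which cannot be told apart from noise between arrays. Nothing says that cultures were separate, so this noise may be technical. A ratio against an array at the floor is a lower bound.

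Members, pathway lists and comparisons were chosen with earlier results of these data known. The rule for named genes took every pathway gene past the threshold, otherwise the 3 brightest of a list, and the genes with the highest r to a member. The pathway genes BAMBI, ACVRL1, TCF4, TAGLN and SNAI2 were named outside this rule, after their values were seen. ENG, TGFBR3, ACVR1B, SMAD3 and NBL1 were taken by the rule but are not described. Alternatives were cyclic loess, a doubled floor, no floor with an offset of 16, a filter of 4 arrays, the mean of probes, a trended and robust prior, a fit without line or without time, a 1.5-fold threshold, and each array left out.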

Additional observations from a re-analysis of the deposited data

How the results depend on the processing

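ID1, ID3 and FST had positive estimates at 4 h and 8 h under all 15 alternatives. There the log2 estimate at 8 h ran from 0.89 to 1.37 for ID1, 2.03 to 2.45 for ID3 and 2.25 to 2.90 for FST, and at 4 h from 0.87 to 1.25, 1.44 to 1.74 and 1.25 to 1.84. At 24 h that of ID1 ran from -0.13 (without the wild-type array at 24 h) to 0.44 (mean of probes), so its sign was not settled. ID2 at 8 h ran from 0.24 to 1.43, and SMAD7 at 4 h from -0.58 to 0.08, the ends being the fits without the wild-type and without the T387A array at 4 h. Signal over background limits ID2, ID4 and SMAD6. A fit with a replicate number as block could not be made, since the titles carry no replicate numbers and each line and time has 1 array. The fit of time plus line compares times within a line, and the fit without line is its unblocked form.

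The number of genes called by limma depended on the floor and the prior, and the cause was not tested. At 4 h it was 47 and became 292 with the doubled floor, 259 with no floor, 85 with the filter of 4 arrays, 350 with the trended and robust prior and 15 without line. At 8 h it was 129, and 257, 270 and 300 with the doubled floor, no floor and the prior. At 24 h it was 139, and 264, 270 and 275 with these. Between 4 h and 24 h it was 139, and 579, 525 and 722 with these, 254 with the filter and 21 without line. Between the lines it was 0, and 1, 7 and 2 with these, and 1 with the filter. With each array left out in turn it was 0 in all 5 comparisons (range 0 to 0), with smallest adjusted p from 0.0548 to 0.524 and 1197 to 2930 genes at an unadjusted p under 0.05; this leaves 2 residual degrees of freedom. Of the pathway calls, BMP6 at 24 h was kept in 6 of 7 other settings (adjusted p from 0.0137 to 0.268, lost without line), NEDD4L in 7 of 7, and PMEPA1 and SKIL in 2 of 7 each. Higher and lower calls at 4 h, 36 and 11, became 147 and 112 with no floor and 171 and 179 with the prior. Pathway calls numbered 0, 1, 2 and 2 in the comparisons with 0 h at 4, 8 and 24 h and between 4 h and 24 h; with the prior they were 5, 4, 1 and 8, with no floor 5, 4, 1 and 5, with the doubled floor 4, 1, 1 and 6, without line 0, 1, 0 and 0, with the filter 0, 1, 2 and 4, with the mean of probes 0, 1, 1 and 1, and with any array left out 0.

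Counts of genes at least 2-fold higher than at 0 h at 4, 8 and 24 h were 329, 333 and 392 in wild-type and 244, 315 and 343 in T387A cells. At 1.5-fold they were 1056, 982 and 1026, and 839, 889 and 1002. With the doubled floor they were 134, 172 and 180, and 148, 210 and 187. With no floor they were 59, 109 and 127, and 89, 146 and 130. Genes at least 2-fold apart between the lines numbered 329, 381, 230 and 583 at 0, 4, 8 and 24 h. At 1.5-fold they were 1414, 1471, 1187 and 1910, with the doubled floor 60, 87, 51 and 118, and with no floor 1, 35, 9 and 14.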

Other observations

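A small group of genes met the same rule of rise and fall as ID3. The rule asked for a level at least 2-fold above 0 h at 8 h in both lines. It also asked for a level 1.5-fold or more below that at 24 h. Of the 13656 genes tested, 40 (0.293%) met it. By the brighter probes ID3 was the 1 member among them, though the dimmer FST probe met the rule too. The group was defined after the data were seen. The group also held the interferon-induced genes IFIT2, GBP1, OASL, RSAD2 and TRIM21. The rule does not ask for a like course: IFIT2 kept more of its rise (6.79 at 8 h and 5.35 at 24 h, log2) than ID3 (2.25 and 0.89). Others in it were KLF6, ARRDC3, an arrestin-like gene (1.11 at 8 h and -0.10 at 24 h, log2), ACTG2, a smooth muscle actin (1.74 and -0.18), and POU3F2, a neural transcription factor (2.89 and 0.27, mean level 51.9). Outside it, TAGLN, an actin-binding protein of smooth muscle on the TGF-β target list, stood at 107.6, 265.8, 231.4 and 152.1 in wild-type and 202.1, 396.9, 302.9 and 198.6 in T387A cells at 0, 4, 8 and 24 h. Its estimate at 4 h was 1.14 ± 0.16 (limma adjusted p = 0.078). SNAI2, a repressor on the same list, had -0.72 ± 0.13 at 4 h (adjusted p = 0.102). No test compared these genes with ID3.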
